A study of Mus musculus with 6 samples.

Results

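The genes described here are 10 genes of the Notch pathway, chosen by symbol from the 24411 genes of the count table. They are the 4 receptors Notch1, Notch2, Notch3 and Notch4, the 3 ligands Jag1, Jag2 and Dll1, and the 3 target genes Hes1, Hey1 and Heyl. They were measured by RNA sequencing in extensor digitorum longus (EDL), a fast-twitch muscle of the hindlimb, of 3 samples from mAktDKO mice (genotype Mlc1f-Cre:Akt1/2-floxed) and 3 from control mice (genotype Akt1/2-floxed, without Cre), all C57BL/6J and 50 weeks old. Each sample is taken here as 1 mouse, which the labels do not state in so many words. Both groups therefore carry the floxed Akt1 and Akt2 alleles, and the groups differ by the Cre knocked in at Mlc1f, a myosin light chain gene. The study describes this promoter as active mainly in fast-twitch muscle and little in satellite cells. No treatment is given for these mice in the labels, and the comparison asks how the pathway's transcripts differ in aged fast-twitch muscle whose fibres were targeted for deletion of Akt1 and Akt2.

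Notch receptors are membrane proteins that are activated by ligands on a neighbouring cell. After ligand binding, the protease Adam10 and then the gamma-secretase complex cut the receptor, and the freed intracellular part enters the nucleus, where it joins the DNA-binding protein Rbpj and Mastermind proteins to switch on targets such as the Hes and Hey repressors. In skeletal muscle the pathway is known for keeping satellite cells, the muscle stem cells, quiescent, and in blood vessels for arterial identity and for the mural cells that coat them. Whole muscle was sequenced, so in every value below fewer cells of a type and less RNA per cell cannot be told apart.

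Total estimated counts were between 13738795 and 15445523 per mouse, and the 10 highest genes held between 30.6% and 34.7% of them. Values below are CPM, the counts of a gene relative to library totals scaled by the TMM method, and 3 counts, the lowest level taken as detectable, correspond to between 0.180 and 0.227 CPM. The targeted genes were examined first. Akt2 averaged 51.0 ± 1.82 CPM with Cre and 149 ± 20.3 CPM without it (SD, n = 3 each, edgeR adjusted p = 0.000923), and Akt1 was 55.7 ± 3.89 and 66.2 ± 0.56 CPM (edgeR adjusted p = 0.115). Counts are per gene, so they do not show the deleted part of Akt1. The labelled tissue was checked on Myh4, the myosin of the fastest fibres, at 49979 ± 2958 CPM in the mAktDKO and 50609 ± 4435 CPM in the control mice (SD, n = 3 each). Control mouse 2 stood apart from the other mice in the chi-square per degree of freedom over the genes tested. Against the other control mice, which differed from each other by 10.6, this mouse had values of 27.3 and 26.4. Against the mAktDKO mice it had values of 50.6 to 69.9. Its Myh2, a myosin of fast oxidative fibres, was 9177 CPM, against 4440 and 4624 CPM in control mice 3 and 4. It was kept. Values without it, or ranges with 1 mouse left out, are given for the 10 Notch pathway genes and for several others.

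All 10 Notch pathway genes passed the filter on low counts, with between 60 and 1559 counts in a mouse, and 0 of them differed between the genotypes at the adjusted p under 0.01 used for a call (edgeR's quasi-likelihood test, Benjamini-Hochberg over 12892 genes, of which 0.0233% were called). DESeq2's Wald test also called 0 of the 10, and 0 had an edgeR adjusted p under 0.05, against 1.18% of all genes. Without adjustment, 3 of the 10 had an edgeR p under 0.05, Notch2 with a higher level in the mAktDKO mice and Jag2 and Hes1 with a lower one, and 24.5% of all genes tested had such a p. The groups did not overlap for 2 of the 10, Notch2 and Hes1, against 31.1% of all genes. Counts of 3 and 2 among 10 genes are close to what these shares give for that number of genes. The log2 fold change was above 0 for 6 of the 10, beside 52.5% of all genes. Its median was 0.12, beside 0.017 over all genes tested, with a range from -0.35 (Hes1) to 0.35 (Dll1). Without control mouse 2, edgeR also called 0 of the 10, and the log2 fold changes were -0.052 for Notch1, 0.23 for Notch2, -0.11 for Notch3, -0.19 for Notch4, 0.34 for Jag1, -0.16 for Jag2, 0.49 for Dll1, -0.33 for Hes1, 0.47 for Hey1 and 0.20 for Heyl. Leaving it out thus turned the sign of Notch1 only and brought Jag2 nearer to 0, with Jag1, Dll1 and Hey1 farther from 0.

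**Figure D1:**
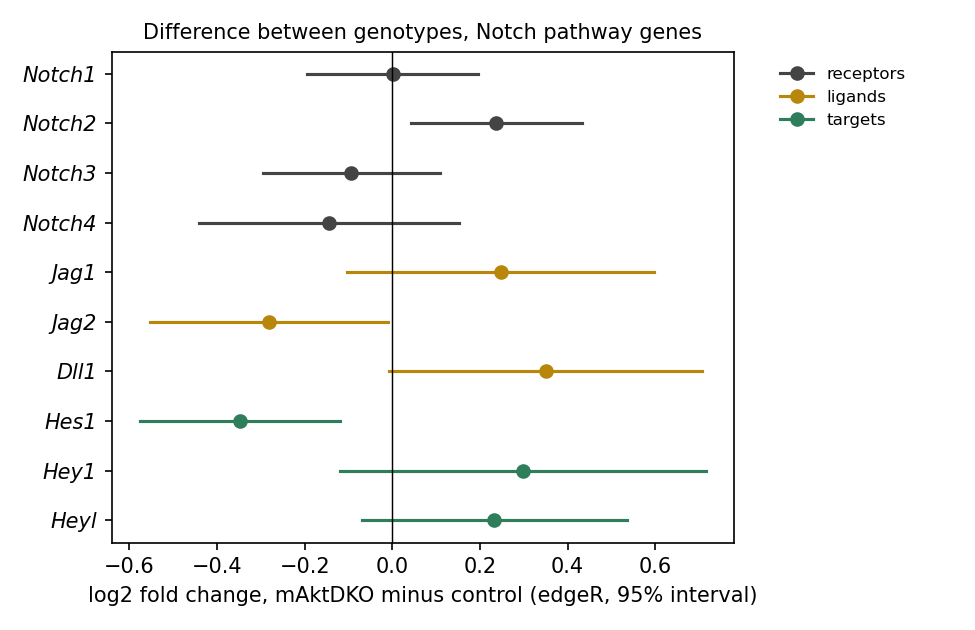
Log2 fold change (mAktDKO minus control, horizontal axis) of each Notch pathway gene from edgeR, with its 95% interval as a line and colours for receptors, ligands and targets. The intervals of Notch2, Jag2 and Hes1 leave out 0, the other 7 include it, and 0 of the 10 genes passed the adjusted threshold.

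Promoter sequence is shown for Notch2 and Jag2, the receptor and the ligand with an unadjusted p under 0.05, whose differences have opposite signs. It is the stretch of 250 bases before the RefSeq start site (GRCm38.p6, the assembly that mm10 names), written 5′ to 3′ on the strand of the gene, with capitals for each GC box, the letters GGGCGG or, on the other strand, CCGCCC. The Notch2 stretch is chr3:98013288-98013537 on the plus strand and the Jag2 stretch is chr12:112929496-112929745 on the minus strand.
Notch2: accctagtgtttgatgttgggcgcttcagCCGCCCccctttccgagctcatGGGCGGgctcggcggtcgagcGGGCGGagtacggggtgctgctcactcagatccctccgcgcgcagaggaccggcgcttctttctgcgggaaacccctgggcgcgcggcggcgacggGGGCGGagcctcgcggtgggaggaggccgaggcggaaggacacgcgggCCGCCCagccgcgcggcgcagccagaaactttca
Jag2: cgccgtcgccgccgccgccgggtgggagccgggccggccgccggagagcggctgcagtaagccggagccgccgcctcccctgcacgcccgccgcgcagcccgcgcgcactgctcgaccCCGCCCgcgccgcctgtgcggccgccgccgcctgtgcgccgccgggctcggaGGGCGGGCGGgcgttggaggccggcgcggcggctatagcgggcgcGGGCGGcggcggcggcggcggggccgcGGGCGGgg
The GC content of the Notch2 stretch was 72.0% and that of the Jag2 stretch 87.2%. Sequence was at hand for 7 of the 10 genes in 8 windows (Dll1 has 2 start sites) and was not used here for Hes1, Hey1 and Heyl. A GC box lay in the windows of 4 of the 7, Notch1, Notch2, Notch3 and Jag2, and in 32.7% of all 32851 promoter windows of this length. The core motif of Rbpj, TGGGAA on either strand, was in none of the 8 windows and in 21.6% of all windows. The E-box CACGTG (6.02% of all windows) and the FoxO core TGTTTAC (3.17% of all windows), searched on both strands, were also in none of the 8. These are descriptions of letters in a window and not of binding.

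Among the receptors, Notch2 had the clearest separation of the groups. Notch2, a receptor that satellite cells and many other cells carry, lies on chromosome 3 of mm10 from 98013527 to 98150361 on the plus strand, and its longest coding transcript has 34 exons. It was 81.7, 78.1 and 75.4 CPM in mAktDKO mice 1 to 3, against 65.5, 61.4 and 72.6 CPM in control mice 2 to 4. Every mAktDKO mouse lay above every control mouse, with the lowest mAktDKO mouse close to control mouse 4. The means were 78.4 ± 3.13 and 66.5 ± 5.64 CPM (SD, n = 3 each), a log2 fold change of 0.24 (standard error 0.086, 95% interval 0.043 to 0.43, edgeR adjusted p = 0.144). With library totals it was 0.38 (edgeR adjusted p = 0.0718).

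Notch1, the receptor best known from satellite cells and endothelium, lies on chromosome 2 from 26457903 to 26516663 on the minus strand. Its values were 48.8, 54.2 and 51.5 CPM in mAktDKO mice 1 to 3, against 47.7, 55.1 and 51.6 CPM in control mice 2 to 4. The ranges of the groups almost coincided. The log2 fold change was 0.00096 (95% interval -0.19 to 0.20, edgeR adjusted p = 0.996), so differences of up to about 1.15-fold in either direction lie inside the interval (0.874 to 1.15 as a ratio). With library totals it was 0.14 (edgeR adjusted p = 0.382).

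Notch3, the receptor of vascular smooth muscle cells and pericytes, lies on chromosome 17 from 32120820 to 32166852 on the minus strand. It was 98.9, 91.8 and 85.2 CPM in mAktDKO mice 1 to 3, against 96.1, 106 and 92.4 CPM in control mice 2 to 4, and it had the most counts of the 10 genes. The groups overlapped, with mAktDKO mouse 3 the lowest and control mouse 3 the highest. The log2 fold change was -0.093 (95% interval -0.29 to 0.11, edgeR adjusted p = 0.537), and it was 0.047 when mice were scaled by library totals. With 1 mouse left out it ranged from -0.15 to -0.038. Notch4, a receptor found mostly in endothelium, lies on chromosome 17 from 34564268 to 34588503 on the plus strand. Its values were 26.8, 21.9 and 20.9 CPM in mAktDKO mice 1 to 3, against 24.2, 29.6 and 23.2 CPM in control mice 2 to 4. The groups overlapped here too, and the log2 fold change was -0.14 (95% interval -0.44 to 0.15, edgeR adjusted p = 0.516). It was -0.0045 with library totals, -0.031 without control mouse 3 and -0.26 without mAktDKO mouse 1.

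**Figure D2:**
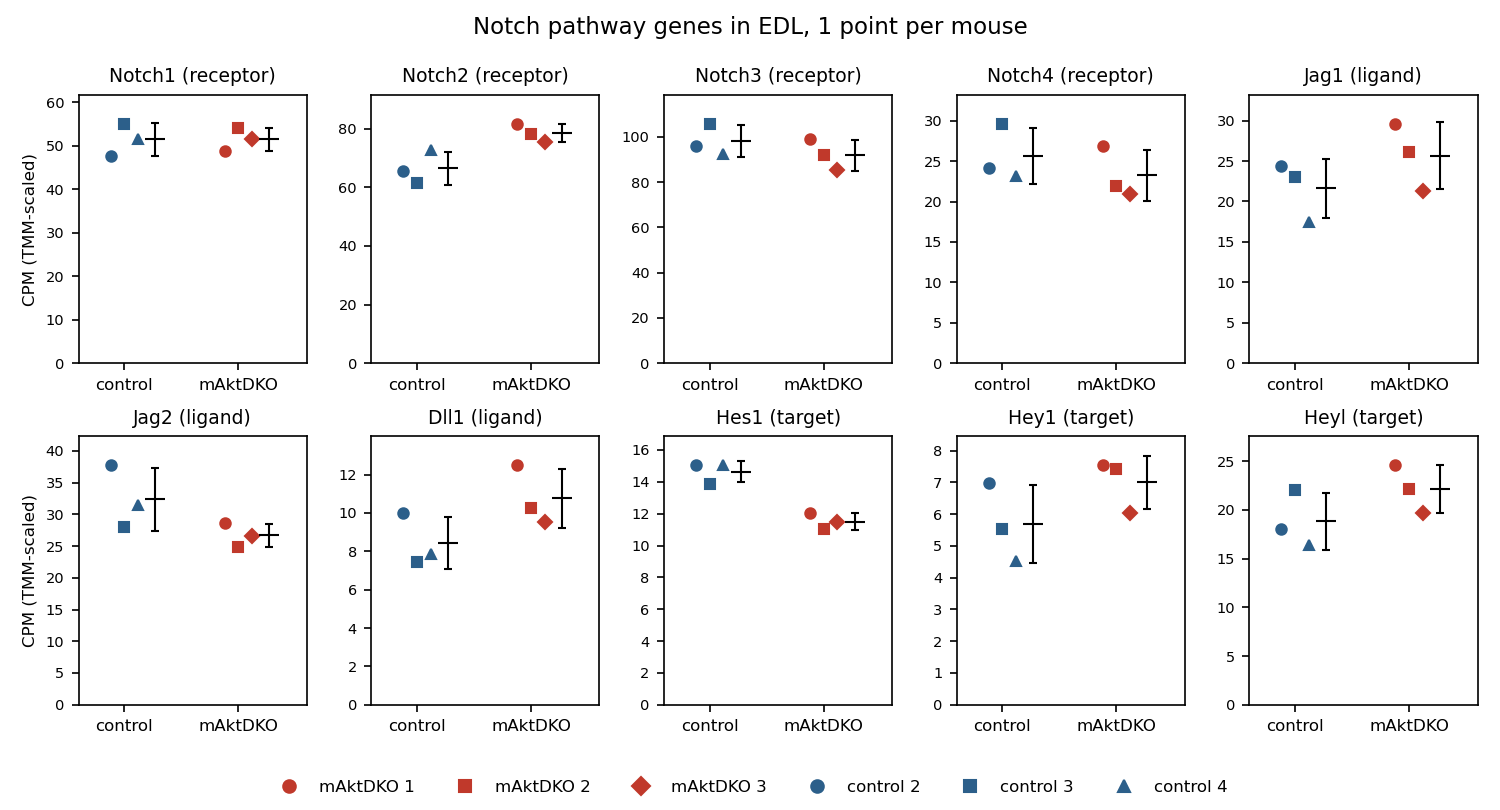
CPM (TMM-scaled, vertical axes from 0) of each Notch pathway gene in each mouse, with control mice in blue, mAktDKO mice in red, a symbol for each mouse, and the mean and SD of each group as a black bar. Notch2 lies between 75.4 and 81.7 CPM in the mAktDKO mice, above all control mice, and Hes1 between 11.02 and 12.05 CPM, below all control mice, while the groups overlap for the other 8 genes.

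The ligands did not share a direction. Jag2, a Serrate-type ligand, lies on chromosome 12 from 112907819 to 112929776 on the minus strand. It was 28.6, 24.9 and 26.5 CPM in mAktDKO mice 1 to 3, against 37.8, 27.9 and 31.5 CPM in control mice 2 to 4. The groups met only where mAktDKO mouse 1 lay above control mouse 3. The means were 26.7 ± 1.84 and 32.4 ± 4.97 CPM (SD, n = 3 each), a log2 fold change of -0.28 (standard error 0.12, 95% interval -0.55 to -0.0087, edgeR adjusted p = 0.191). Without control mouse 2, the highest mouse, it was -0.16 (edgeR adjusted p = 0.412), and with library totals it was -0.14.

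Dll1, a Delta-type ligand made by activated satellite cells and their progeny, lies on chromosome 17 from 15367354 to 15376872 on the minus strand. Its values were 12.5, 10.2 and 9.53 CPM in mAktDKO mice 1 to 3, against 9.998, 7.44 and 7.86 CPM in control mice 2 to 4. Control mouse 2 lay above mAktDKO mouse 3, and the other mAktDKO mice lay above all control mice. The log2 fold change of 0.35 was the highest of the 10 genes (standard error 0.16, 95% interval -0.0070 to 0.71, edgeR adjusted p = 0.210). Jag1, the other Serrate-type ligand and the main ligand that endothelium presents to mural cells, lies on chromosome 2 from 137081456 to 137116644 on the minus strand. It was 29.6, 26.1 and 21.3 CPM in mAktDKO mice 1 to 3, against 24.3, 23.1 and 17.5 CPM in control mice 2 to 4. mAktDKO mouse 3 lay inside the control range, and the log2 fold change was 0.25 (standard error 0.15, 95% interval -0.10 to 0.60, edgeR adjusted p = 0.343).

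Of the target genes, no mAktDKO mouse reached the lowest control value of Hes1, whereas Hey1 and Heyl were higher on average. Hes1, a repressor of the Hairy and Enhancer of split family that other signals than Notch also induce, lies on chromosome 16 from 30064384 to 30067796 on the plus strand. It was 12.05, 11.02 and 11.45 CPM in mAktDKO mice 1 to 3, against 15.03, 13.86 and 15.05 CPM in control mice 2 to 4. The gap between the groups was wider than the range inside either of them. The means were 11.5 ± 0.51 and 14.6 ± 0.68 CPM (SD, n = 3 each), a log2 fold change of -0.35 (standard error 0.10, 95% interval -0.58 to -0.12). Its unadjusted p of 0.00725 was the smallest of the 10 genes and ranked 990 of the 12892 genes (edgeR adjusted p = 0.0943). With library totals the log2 fold change was -0.21 (edgeR adjusted p = 0.240).

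Hey1, a related repressor of arterial endothelium and of quiescent satellite cells, lies on chromosome 3 from 8663359 to 8667256 on the minus strand. It was the lowest of the 10 genes, at 7.55, 7.43 and 6.03 CPM in mAktDKO mice 1 to 3, against 6.99, 5.54 and 4.54 CPM in control mice 2 to 4. mAktDKO mouse 3 lay inside the control range, and the log2 fold change was 0.30 (standard error 0.18, 95% interval -0.12 to 0.72, edgeR adjusted p = 0.338). Counting error alone gives a standard error of 0.12 for this gene. Heyl, which mural and satellite cells express, lies on chromosome 4 from 123233556 to 123249875 on the plus strand. Its values were 24.6, 22.2 and 19.7 CPM in mAktDKO mice 1 to 3, against 18.0, 22.1 and 16.4 CPM in control mice 2 to 4. Control mouse 3 overlapped with the mAktDKO group, and the log2 fold change was 0.23 (standard error 0.13, 95% interval -0.069 to 0.54, edgeR adjusted p = 0.305).

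To compare levels between genes, CPM was divided by the length of the longest coding transcript (GENCODE M21) in kilobases. In the control mice the order of these levels per kilobase began with Notch3 at 12.2 ± 0.86 and Hes1 at 9.98 ± 0.46, which did not overlap with each other or with Jag2 at 6.35 ± 0.97 (SD, n = 3 each). Jag2 and Notch2 (6.33 ± 0.54) overlapped, Notch1 followed at 5.42 ± 0.39, and Heyl (4.15 ± 0.65), Notch4 (3.90 ± 0.52) and Jag1 (3.85 ± 0.65) overlapped with each other. Dll1 (2.36 ± 0.38) and Hey1 (2.35 ± 0.51) were lowest and overlapped. In the mAktDKO mice Notch3 was again first at 11.5 ± 0.85 per kilobase without overlap. There, Hes1 at 7.84 ± 0.35 overlapped with Notch2 at 7.47 ± 0.30, and from Notch1 at 5.43 ± 0.28 down to Hey1 at 2.89 ± 0.35 each gene overlapped with the next.

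The make-up of each role within a mouse does not depend on how mice are scaled. Among the receptors, Notch2 held 26.5%, 26.6% and 27.2% of the summed counts per kilobase in the mAktDKO mice and 23.2%, 19.9% and 25.2% in the control mice, and the groups did not overlap. Notch3 held the most in every mouse, 41.1 ± 0.91% and 43.9 ± 1.57% (SD, n = 3 each), with groups that only just did not overlap, while Notch1 held 19.5 ± 1.70% and 19.4 ± 0.67%. Among the ligands, Jag2 held 41.0 ± 3.11% in the mAktDKO and 50.5 ± 3.43% in the control mice, and Dll1 held 23.4 ± 0.77% and 18.7 ± 0.78%, and neither pair of groups overlapped. The share of Jag1, 35.6 ± 2.64% and 30.7 ± 4.14%, did overlap.

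Within the targets, Hes1 held 49.0%, 48.6% and 53.3% of the summed counts per kilobase in the mAktDKO mice and 59.9%, 56.9% and 65.1% in the control mice. Hey1 held 18.5 ± 1.41% and 14.2 ± 2.51%, and Heyl 31.2 ± 1.41% and 25.2 ± 3.60% (SD, n = 3 each). None of these 3 shares overlapped between the groups, but the shares of a role add up to 100%, so they are not independent of each other. In CPM the groups of Notch3, Jag2, Dll1, Hey1 and Heyl did overlap. How often shares of receptors, ligands or targets would be apart for other sets of genes was not measured. The ratio of Hey1 to Hes1 counts was 0.63, 0.67 and 0.53 in the mAktDKO mice and 0.47, 0.40 and 0.30 in the control mice. The ratio of Heyl to Hes1 counts was 2.04, 2.01 and 1.72, against 1.20, 1.59 and 1.09. Both ratios were chosen after the values were seen and are given as a description, without a test.

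**Figure D3:**
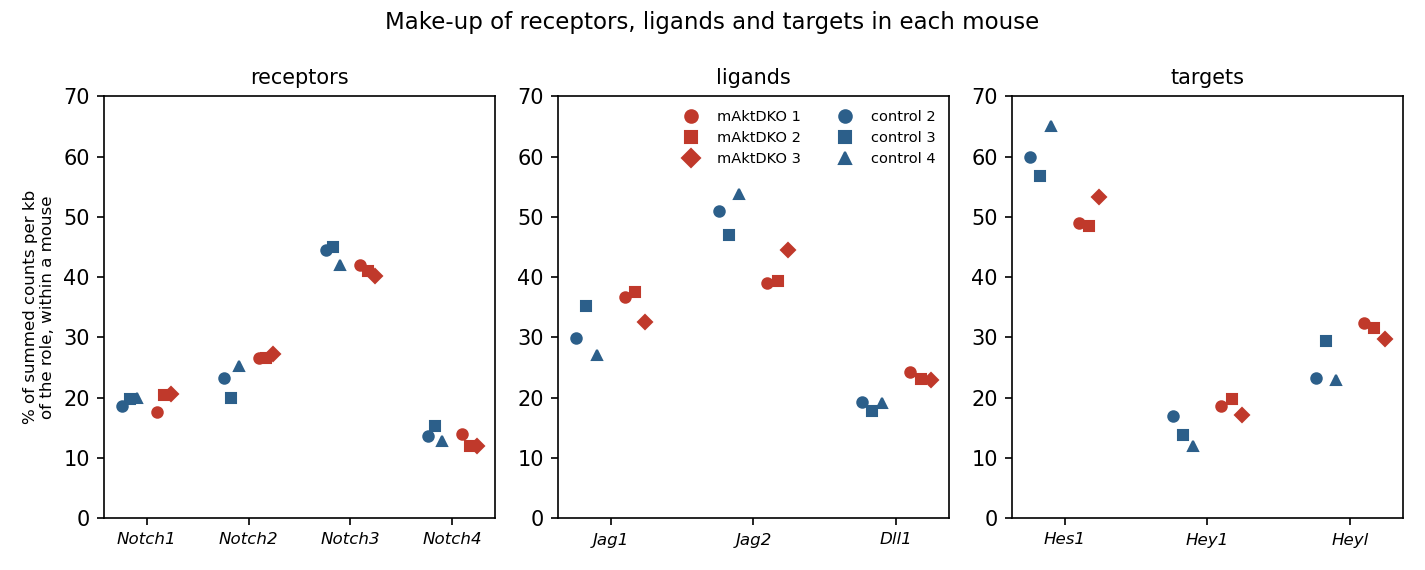
Share of each gene in the summed counts per kilobase of its role within a mouse (vertical axes, percent), with control mice in blue, mAktDKO mice in red and a symbol for each mouse. Hes1 lies between 48.6% and 53.3% in the mAktDKO mice and between 56.9% and 65.1% in the control mice, and Notch3 is the leading receptor in all 6 mice.

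The rest of the pathway was taken from a list of 65 other genes, of which 57 were tested. edgeR called 0 of the 57, with 0 at an adjusted p under 0.05, and DESeq2's Wald test called 1, Neurl1a. Without adjustment, 10 were higher and 6 lower in the mAktDKO mice at an edgeR p under 0.05, beside 11.4% of all genes higher and 13.1% lower. The groups did not overlap for 20 of the 57, 13 higher and 7 lower, beside 14.6% and 16.6% of all genes. The median log2 fold change was 0.079. The 8 genes under the filter were Dll3 and Hes3, at 0 counts in every mouse, Hes2, Hes5 and Hes7, at most 1 count, Dlk2, at most 3, and Dner and Dtx1, at most 12 and 13 counts.

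Among these other ligands, Dll4, the ligand of endothelial tip cells and arteries, was 7.61, 8.27 and 6.24 CPM in mAktDKO mice 1 to 3, against 12.9, 10.7 and 9.30 CPM in control mice 2 to 4. The groups did not overlap, and the log2 fold change was -0.57 (standard error 0.16, edgeR adjusted p = 0.0891). Dll4 ranged from -0.68 to -0.44 with 1 mouse left out. Dlk1, a non-canonical ligand, had a log2 fold change of 0.58 with a standard error of 0.63 and overlapping groups. It rested on single mice, since it was 0.057 without control mouse 2, which had 4 counts, and 1.40 without control mouse 3. Among other targets, Hey2, a repressor of arterial endothelium, was 1.06 ± 0.20 CPM in the mAktDKO and 0.63 ± 0.15 CPM in the control mice (SD, n = 3 each), with groups that did not overlap (log2 fold change 0.74, standard error 0.35, edgeR adjusted p = 0.229). Nrarp, a feedback inhibitor, had a log2 fold change of 0.16 (edgeR adjusted p = 0.571), and from 0.042 to 0.29 with 1 mouse left out. Hes6, which opposes Hes1, was at -0.10 (edgeR adjusted p = 0.795) and at 0.034 with library totals.

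The ubiquitin ligases that act on ligands in the signal-sending cell differed in sign. Neurl1a, the highest of them, was 121, 109 and 121 CPM in mAktDKO mice 1 to 3, against 190, 157 and 144 CPM in control mice 2 to 4. No mAktDKO mouse reached the control range, and the log2 fold change was -0.49 (standard error 0.11, edgeR adjusted p = 0.0602, DESeq2 adjusted p = 0.00359). With 1 mouse left out, Neurl1a ranged from -0.57 to -0.36 in edgeR. Its relative Neurl1b was at 0.36 (edgeR adjusted p = 0.177) and Mib2 at -0.32 (edgeR adjusted p = 0.179), both with overlapping groups, and Mib2 was -0.20 without control mouse 2. None of the 7 glycosyltransferases, which set the affinity of receptors for ligands, had an unadjusted edgeR p under 0.05, beside 24.5% of all genes. The smallest p in this role belonged to Rfng at -0.20, Lfng at 0.31 and Xxylt1 at 0.23 (edgeR adjusted p = 0.452, 0.479 and 0.503). These rested on single mice, since Rfng was -0.018 and Lfng 0.042 without control mouse 2, and Xxylt1 was 0.090 without mAktDKO mouse 1.

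Of the 10 proteases, 2 were higher and 0 lower in the mAktDKO mice at an unadjusted p under 0.05, beside 11.4% and 13.1% of all genes. Adam10, the protease that makes the first ligand-dependent cut, was 61.6 ± 4.58 and 47.3 ± 7.75 CPM (SD, n = 3 each), without overlap of the groups (log2 fold change 0.38, edgeR adjusted p = 0.113). Adam10 ranged from 0.27 to 0.51 with 1 mouse left out. Aph1b, a gamma-secretase subunit, was at 0.22 (edgeR adjusted p = 0.331).

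Of the 22 genes of the nuclear complex and its co-factors, 3 were higher and 3 lower in the mAktDKO mice at an unadjusted p under 0.05, together a share near the 24.5% of all genes. Tle1, a co-repressor that Hes proteins recruit, was 22.7 ± 0.52 CPM in the mAktDKO and 30.1 ± 2.97 CPM in the control mice (SD, n = 3 each), a log2 fold change of -0.41 (edgeR adjusted p = 0.0646). Tle1 ranged from -0.46 to -0.32 with 1 mouse left out. Maml3, a Mastermind co-activator, was at 0.38 (edgeR adjusted p = 0.104) and Ctbp1, a co-repressor, at -0.28 (edgeR adjusted p = 0.148), and all 3 had groups that did not overlap. Without control mouse 2, Ctbp1 was at -0.17. Rbpj, given for its role at the centre of the pathway and not by the rule for named genes, was 66.6, 75.4 and 67.1 CPM in mAktDKO mice 1 to 3, against 60.2, 59.2 and 66.1 CPM in control mice 2 to 4 (log2 fold change 0.17, edgeR adjusted p = 0.247). Among the 9 inhibitors and turnover genes, 4 were higher and 0 lower at an unadjusted p under 0.05, beside 11.4% and 13.1% of all genes, and edgeR called 0 of the 9. Dtx4, a Deltex-type ubiquitin ligase, was at 0.43 (edgeR adjusted p = 0.0848), Itch, a ligase that marks Notch for degradation, at 0.28 (edgeR adjusted p = 0.135) and Numbl, a relative of the inhibitor Numb, at 0.37 (edgeR adjusted p = 0.151).

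**Figure D4:**
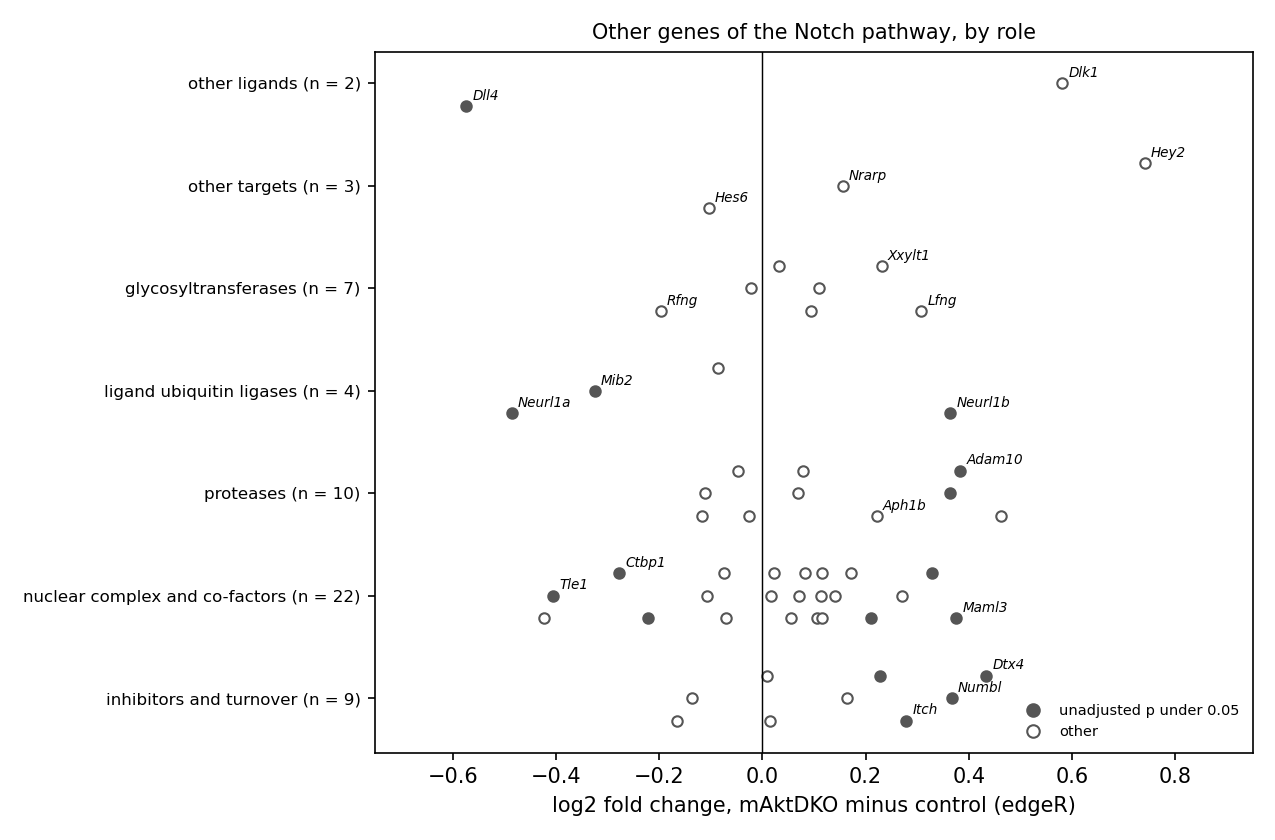
Log2 fold change (mAktDKO minus control, horizontal axis) of the 57 tested other genes of the pathway, grouped by role, with filled points for an unadjusted edgeR p under 0.05 and names for the genes the text gives by the smallest p in each role. Dll4 lies lowest at -0.57 and Hey2 highest at 0.74, and points of both signs occur in every role.

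Marker lists of cell types that are known to express Notch genes were measured in the same mice. The 16 endothelial markers summed to between 993 and 1100 CPM in the mAktDKO mice and between 888 and 1050 CPM in the control mice. The 10 mural cell markers summed to between 1128 and 1201 CPM and between 1037 and 1138 CPM. The 7 satellite cell markers summed to between 126 and 129 CPM and between 118 and 126 CPM. All 3 sums were slightly higher on average in the mAktDKO mice with overlapping ranges, and no marker was at 0 in every mouse. Single genes carry much of these sums. Sdc4, a proteoglycan that many cells make, was 77.2 ± 5.85 and 71.0 ± 0.55 CPM of the satellite cell sum, and Abcc9, a potassium channel subunit that muscle fibres also make, was 485 ± 20.7 and 469 ± 15.9 CPM of the mural sum (SD, n = 3 each).

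Single markers of both signs occurred in each of these lists. Of the endothelial markers 9 were higher and 7 lower, led by Cdh5 at a log2 fold change of 0.32, Emcn at 0.46 and Eng at 0.19 (edgeR adjusted p = 0.173, 0.174 and 0.215). With 1 mouse left out, Cdh5 ranged from 0.23 to 0.49 and Emcn from 0.29 to 0.71. Of the mural markers 5 were higher and 5 lower, with Rgs5 at 0.31, Higd1b at -0.64 and Pdgfrb at 0.12 (edgeR adjusted p = 0.154, 0.248 and 0.348). With 1 mouse left out, Rgs5 ranged from 0.20 to 0.44, Higd1b from -1.01 to -0.36 and Pdgfrb from 0.077 to 0.16. Of the satellite cell markers 6 were higher and 1 was lower, with Cdh15 at -0.42, Myf5 at 0.59 and Vcam1 at 0.43 (edgeR adjusted p = 0.122, 0.179 and 0.308), and with 1 mouse left out Cdh15 ranged from -0.52 to -0.25 and Vcam1 from 0.20 to 0.69. Pax7, the defining factor of satellite cells, was 3.51 ± 0.62 CPM in the mAktDKO and 3.31 ± 0.48 CPM in the control mice (SD, n = 3 each). edgeR called 0 genes of each of these 3 lists, and 2 of 16 endothelial, 1 of 10 mural and 2 of 7 satellite cell markers had an unadjusted edgeR p under 0.05, beside 24.5% of all genes.

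Relative to these sums, the separation of Hes1 remained and that of Notch2 did so for one of the 3 lists. The log2 level of Hes1 was lower in the mAktDKO mice by a difference of -0.48 against the endothelial sum, -0.45 against the mural sum and -0.41 against the satellite cell sum, each without overlap of the groups. For Notch2 the differences were 0.11, 0.14 and 0.18, and the groups were apart only against the satellite cell sum, which is mostly Sdc4. Notch3 had differences of -0.23 against the endothelial and -0.19 against the mural sum and Notch4 one of -0.28 against the endothelial sum, and these 3 did not overlap, whereas both genes overlapped in CPM. Jag2 had differences of -0.37 against the mural and -0.33 against the satellite cell sum without overlap, and one of -0.41 against the endothelial sum with overlap. Notch1, Jag1, Dll1, Hey1 and Heyl overlapped against all 3 sums. In the mAktDKO mice the endothelial, mural and satellite cell sums averaged 1.10, 1.07 and 1.04 times the control means, which lowers every ratio. How often groups are apart in such ratios over all genes was not measured. These ratios are a description, without a test, and the part of cell numbers in them was not tested.

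The other lists served as a measure of what else the muscle held. The sum of 6 arterial endothelium markers was 53.2 ± 4.69 CPM in the mAktDKO and 57.2 ± 2.90 CPM in the control mice, that of 7 fibro-adipogenic progenitor markers 1363 ± 76.3 and 1315 ± 59.7 CPM, and that of 8 macrophage markers 131 ± 14.9 and 106 ± 25.0 CPM (SD, n = 3 each). The arterial list includes Dll4 and Hey2, given above as pathway genes, so its sum is not independent of them. Within it, Dll4 was 7.37 ± 1.03 and 10.99 ± 1.83 CPM, and Hey2 1.06 ± 0.20 and 0.63 ± 0.15 CPM (SD, n = 3 each). Schwann cell markers summed to 287 ± 43.3 and 237 ± 18.7 CPM and adipocyte markers to 199.5 ± 43.8 and 142 ± 16.0 CPM (SD, n = 3 each). Most of the adipocyte sum is Fabp4, a fatty acid binding protein that endothelium also makes, at 149 ± 18.1 and 117 ± 5.19 CPM (SD, n = 3 each). All 6 adipocyte markers had a log2 fold change above 0, with a median of 1.02, and 5 of them had an unadjusted edgeR p under 0.05 (smallest edgeR adjusted p = 0.0941), beside 11.4% of all genes higher at that p. The groups were apart for Fabp4 only, since mAktDKO mouse 3 lay inside the control range for the other 5. Fast fibre markers summed to 119643 ± 6063 and 137360 ± 5858 CPM (SD, n = 3 each), with every mAktDKO mouse below every control mouse, and slow fibre markers to between 426 and 915 CPM, against 363 to 580 CPM in the control mice. The highest sums of endothelial, mural, macrophage and Schwann cell markers were in mAktDKO mouse 1, which also had the highest CPM of Notch2, Jag1, Dll1, Hey1 and Heyl of all 6 mice. Without that mouse, the log2 fold changes were 0.21 for Notch2, 0.13 for Jag1, 0.23 for Dll1, 0.24 for Hey1 and 0.15 for Heyl, and the part of these cells in the values was not tested.

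**Figure D5:**
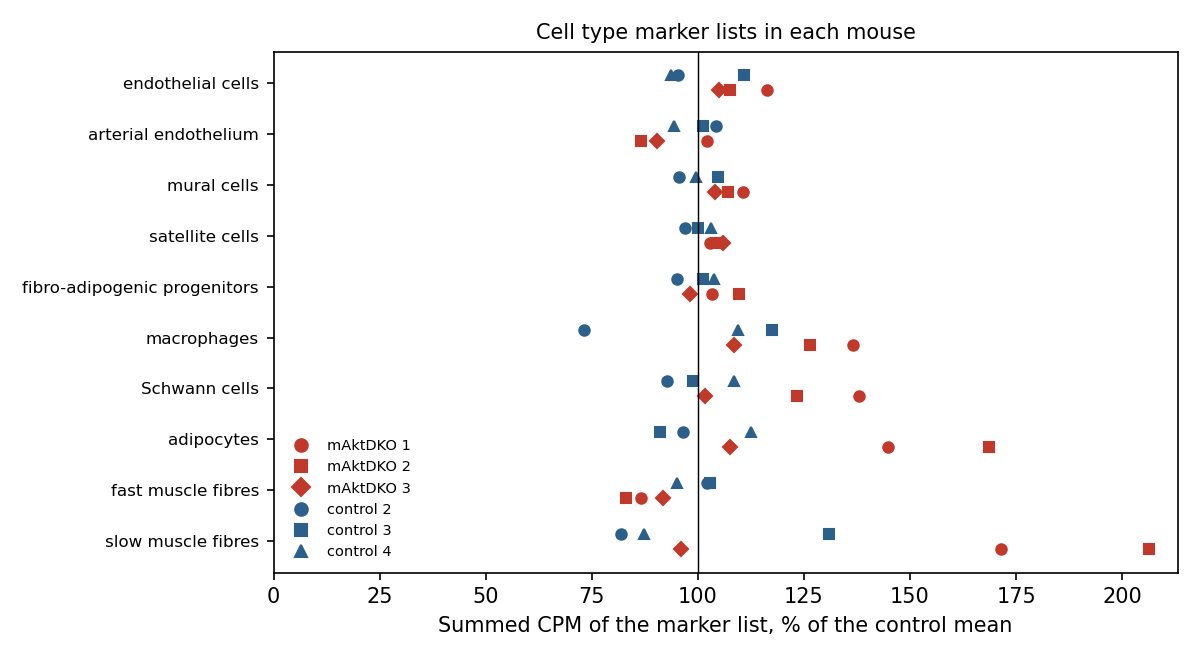
Summed CPM of each cell type marker list in each mouse, as percent of the mean of the control mice (horizontal axis from 0), with control mice in blue, mAktDKO mice in red and a symbol for each mouse. Endothelial, mural and satellite cell sums of the mAktDKO mice lie close to those of the control mice, fast fibre sums lie below them in all 3 mAktDKO mice, and adipocyte and slow fibre sums are spread most widely.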

How the data were processed

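Values are the estimated counts per gene that the authors deposited, in 1 column per mouse and not scaled between mice. The authors removed ribosomal RNA, made directional libraries, read them as 37 bp pairs, mapped the reads to mm10 with STAR and obtained the counts with RSEM (1.3.1, also in the submitters' processing notes). Whether counting used strand is not given in the sources used here, and for Notch1, Notch3, Notch4 and Dll1 an annotated gene overlaps on the opposite strand. All 10 genes had whole values at the 2 decimals of the table. Control columns are numbered 2 to 4 and control samples 1 to 3, so these columns were tied to their group only. Each sample is taken as 1 mouse, which the labels do not state, so p-values measure the spread between these samples, whatever its source.

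The estimated counts were rounded in R 4.3.3. With edgeR 4.0.16, genes were kept by filterByExpr (at least 10 counts), libraries were normalised by TMM, and genotype was tested by quasi-likelihood F tests over 12892 genes, with Benjamini-Hochberg adjustment. A call needs an adjusted p under 0.01. The study's own methods, which used DESeq2, set this threshold together with a q value under 0.05, which was not applied here. The standard error is the size of the log2 fold change divided by the square root of F. These steps were run on simulated data to check the code. The simulated differences were larger than those of the 10 genes, and no simulated mouse stood apart. Power for the differences described here was not measured. The members and lists were chosen with earlier results of these data known. Named are all 10 genes, Akt1 and Akt2, and at most 3 genes with the smallest p in each role of the wider pathway and in the endothelial, mural and satellite cell lists. Pax7, Myh4 and Rbpj were added for their roles, and Sdc4, Abcc9 and Fabp4 after their values were seen, for their weight in a marker sum. Of the genes this rule names, 1 is not reported here. Alternatives were other scalings, DESeq2 1.42.0, no filter, an adjusted p under 0.05 and leaving out each mouse.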

Additional observations from a re-analysis of the deposited data

How the results depend on the processing

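No Notch pathway gene was called (0 of 10) under any alternative: size factors of DESeq2, scaling by library totals or upper quartiles, DESeq2's Wald test, no filter on low counts, an adjusted p under 0.05, or leaving out any 1 mouse. Of the other pathway genes 0 were called in these fits, except 1 with DESeq2's Wald test (Neurl1a). Over all genes the count of 3 became 328 with DESeq2's Wald test, run on all 17357 genes with a count and so also without the filter, 32 with edgeR without the filter and 152 at an adjusted p under 0.05, and lay between 0 and 8 when 1 mouse was left out. It was 0 without any one of the mAktDKO mice (1871 to 2794 genes with an unadjusted edgeR p under 0.05) and 8 without control mouse 2; the cause was not tested. Library totals shifted the median over all genes from a log2 fold change of 0.017 to 0.16, and higher genes then made up 82.1% instead of 46.5% of those with an unadjusted p under 0.05. With library totals Notch3 was at 0.047 and Hes6 at 0.034, but relative to the shifted median Notch3 was at -0.11. Notch1, near 0, was at -0.0016 with DESeq2 size factors, -0.0074 with DESeq2's Wald test and -0.0053 without the filter, and from -0.052 to 0.051 with 1 mouse left out, where Hes6 ranged from -0.30 to 0.015. The other 8 Notch pathway genes kept their sign under every alternative. With 1 mouse left out, Hes1 ranged from -0.39 to -0.32 (edgeR adjusted p from 0.126 to 0.321) and Notch2 from 0.18 to 0.30 (edgeR adjusted p from 0.0973 to 0.358). In those fits Jag1 ranged from 0.11 to 0.35, Jag2 from -0.38 to -0.16, Dll1 from 0.23 to 0.49, Hey1 from 0.16 to 0.47 and Heyl from 0.14 to 0.36. Of 492 comparisons of a named gene with an alternative, 479 had the same direction and side of the threshold, 1 newly passed it, 3 no longer did and 9 had the other sign. The 3 were Akt2 without any one of the mAktDKO mice, where its edgeR adjusted p was 0.0165 to 0.0208 and its log2 fold change -1.59 to -1.52. No paired analysis was possible because numbers 2 to 4 of the control columns cannot be tied to control samples 1 to 3. Of the 10 Notch pathway genes, Hey1, with 60 to 124 counts in a mouse, had the fewest counts and the largest standard error from counting alone.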
